A study of Mus musculus with 10 samples.

Results

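DNA replication and S-phase genes were followed across RNA-seq libraries of NIH-3T3 cells, an immortalised mouse embryonic fibroblast line labelled as wild type. The group comprised 55 genes named by symbol, and all 55 were found, each in 1 row, among the 17053 genes of the deposited table. They were divided by role into 11 genes of origin licensing, 8 of helicase activation, 9 encoding polymerases and primase, 11 encoding the sliding clamp, its loader, the single-strand binding protein RPA and enzymes of Okazaki fragment maturation, 5 of nucleotide supply, 4 E2F transcription factors and 7 acting at the fork or in chromatin assembly.

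The study held 10 libraries in 5 groups of 2, lettered A and B. Cells were given 800 µM 4-thiouridine (4sU) for 2 hours and their RNA was converted by TUC chemistry (osmium tetroxide with an ammonium salt), converted by SLAM chemistry (IAA) or left unconverted. The other groups were cells given 800 µM uridine for 2 hours and untreated cells, both without conversion. All groups shared the same wild-type line, and nothing in the labels tells whether A and B are separate cultures. In fits without the letter, p-values cover only the spread between 2 libraries of a group, which may be technical. In fits with the letter as a block, they cover only what is left of that spread. The part that a letter shares across groups is then taken out.

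Chromosomal replication begins when the origin recognition complex, Cdc6 and Cdt1 load the Mcm2-7 helicase onto origins in G1. The kinase Cdc7-Dbf4 and the factors Cdc45, GINS and Mcm10 then activate the helicase, after which DNA polymerases copy the strands behind the PCNA clamp. Many of these genes are transcribed at the transition from G1 to S phase by E2F factors, and cultured fibroblasts that divide express them strongly. 4sU taken up by cells enters newly made RNA, and both chemistries turn it into a base that is read as cytidine, so that converted reads mark RNA made during labelling.

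Gene totals ran from 27094222 counts (uridine A) to 33785682 counts (untreated B), and the lowest count of any of the 55 genes in any library was 86 reads. All 10 fibroblast markers on the list used were present, with a summed level of 18400 to 26700 CPM. CPM are read counts scaled to a common library size, by library totals for the markers here. For the gene levels further below, TMM factors were used as well. Single fibroblast markers ranged from Lum, at 4.83 to 11 CPM, to Fn1, at 5320 to 10900 CPM. Epithelial markers (3 of 6 in the table, 0 past the filter on low counts) summed to 0.0296 to 0.161 CPM and endothelial markers (4 of 4 in the table, 1 past the filter) to 0.296 to 1.07 CPM. Blood markers (4 of 5 in the table) summed to 6.52 to 13.9 CPM, of which Cd68 made up 6.46 to 13.7 CPM while Ptprc lay between 0 and 0.15 CPM, and adipocyte or muscle markers (3 of 4 in the table) summed to 4.82 to 7.13 CPM.

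The libraries differed by letter, and the replication genes moved with it. Library B was below library A in CPM in all 5 groups for 44 of 55 replication genes, against 29.1% of all 12218 genes tested. It was above A in all 5 groups for 3, the kinase gene Cdc7, the E2F repressor gene E2f7 and the fork gene Wdhd1, against 30.3% of all genes. The mean log2 ratio of B over A had a median of -0.205 over the 55 genes and 0.0108 over all genes, with -0.44 for Tk1 (thymidine kinase), -0.39 for Rfc2, -0.38 for Rfc4 (both clamp loader subunits) and 0.24 for Cdc7. Each comparison was therefore fitted without the letter, as the main test, and with the letter as a block. In bulk RNA, fewer cells in S phase and less RNA per cell cannot be told apart.

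Replication genes were abundant in untreated cells. Per kilobase of the deposited gene length, they had a median level of 20.7 CPM, against 8.58 CPM over all genes tested. Pcna, the sliding clamp, was highest of the 55 at 201.4 CPM per kilobase. Rrm2, the regulated subunit of ribonucleotide reductase, followed at 91.3, and the helicase subunits Mcm7, Mcm3 and Mcm4 had 75.4, 72.9 and 66.4 CPM per kilobase. The lowest were E2f2, an activator E2F, at 0.652, the polymerase delta subunit Pold3 at 5.41, the GINS subunit Gins3 at 5.95 and the E2F repressors E2f8 at 7.02 and E2f7 at 7.22 CPM per kilobase. By RefSeq positions (GRCm38.p6), 13 of the 55 overlapped another gene of the deposited table. These were Cdc45, Chaf1a, E2f1, Fen1, Gins2, Mcm7, Orc1, Pold2, Pole2, Rfc4, Rpa1, Timeless and Tk1. Overlaps with genes outside the deposited table were not counted. The deposited table also listed Pcna-ps2, a copy of Pcna. Values of the overlapping genes are uncertain, because the strand setting is not given in the sources used here. The value of Pcna is uncertain because the sources do not tell how reads matching both it and its copy were counted.

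Promoter windows of RefSeq (GRCm38.p6, 250 bases before to 50 after the start) were matched for 47 of the 55 genes. They were searched on both strands for TTTCCCGC, TTTGGCGC, TTTGCCGC and TTTCGCGC, 4 spellings of the element that E2F factors bind. At least 1 spelling was found in 17 of 47 genes (36.2%), against 4.75% of the 9287 genes tested that had a window and 2.6% of all 27025 genes with a window. Some of these spellings overlap each other on opposite strands. The 4 windows below belong to genes called with the letter as a block in the comparisons that follow. The main test called none of these genes. The windows are given 5′ to 3′ with the motif letters in capitals. Pold3 (chr7:100121453-100121752, minus strand), Pole2 (chr12:69228141-69228440, minus strand) and Mcm5 (chr8:75109259-75109558, plus strand) were those with a motif among genes called with the block for 4sU against untreated cells. Cdc6 (chr11:98907901-98908200, plus strand) was chosen after its values were seen.
Pold3: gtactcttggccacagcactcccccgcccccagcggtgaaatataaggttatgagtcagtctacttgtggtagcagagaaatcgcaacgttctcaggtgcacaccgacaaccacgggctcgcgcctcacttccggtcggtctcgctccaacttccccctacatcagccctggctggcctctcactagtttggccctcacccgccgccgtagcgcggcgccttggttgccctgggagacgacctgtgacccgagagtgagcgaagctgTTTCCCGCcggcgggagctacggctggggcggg
Pole2: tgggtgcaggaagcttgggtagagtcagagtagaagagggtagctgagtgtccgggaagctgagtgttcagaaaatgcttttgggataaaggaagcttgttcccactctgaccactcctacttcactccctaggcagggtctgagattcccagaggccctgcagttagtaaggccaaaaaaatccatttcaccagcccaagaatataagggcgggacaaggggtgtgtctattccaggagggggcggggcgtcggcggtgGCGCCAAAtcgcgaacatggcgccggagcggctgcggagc
Mcm5: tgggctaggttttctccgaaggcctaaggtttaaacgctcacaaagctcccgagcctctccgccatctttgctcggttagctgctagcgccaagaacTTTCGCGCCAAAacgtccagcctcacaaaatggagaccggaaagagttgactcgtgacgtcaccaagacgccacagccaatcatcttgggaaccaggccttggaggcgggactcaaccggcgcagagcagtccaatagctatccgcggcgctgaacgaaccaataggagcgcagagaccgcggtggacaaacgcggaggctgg
Cdc6: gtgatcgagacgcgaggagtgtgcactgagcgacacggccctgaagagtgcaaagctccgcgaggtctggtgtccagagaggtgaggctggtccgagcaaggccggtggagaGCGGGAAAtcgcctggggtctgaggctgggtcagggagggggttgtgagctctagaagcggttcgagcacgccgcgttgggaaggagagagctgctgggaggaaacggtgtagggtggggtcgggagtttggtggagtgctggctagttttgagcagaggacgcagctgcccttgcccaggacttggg

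The motif of Pold3 was TTTCCCGC, 17 bases after the start. That of Pole2 was TTTGGCGC on the opposite strand, 10 bases after the start. Mcm5 held TTTCGCGC 153 bases before the start, and its last letters overlapped TTTGGCGC on the opposite strand 149 bases before it. Cdc6 held TTTCCCGC on the opposite strand, 138 bases before the start. A match in letters is a description of the window and not a measured binding site.

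The share of each gene's RNA that was new, as the new-to-total RNA ratio or NTR, set the replication genes far apart from each other. The file headers do not name the quantity, and it is taken as the NTR because it lies near 0 without conversion and high with it. As background, in cells at steady state an RNA that turns over faster has a higher ratio after a given labelling time. Over the 55 genes the median NTR was 0.455 in TUC A, 0.532 in TUC B, 0.435 in SLAM A and 0.517 in SLAM B. Over all 10202 genes that averaged at least 100 reads, the medians of the same libraries were 0.544, 0.63, 0.523 and 0.611, each above that of the replication genes. Without conversion the medians of the 55 genes were 0.0161 and 0.0146 in the 4sU libraries and 0.013 and 0.0084 in the uridine libraries, with a highest single value of 0.0729 (E2f2, 4sU B).

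The 6 highest SLAM means were those of E2f8, Gins3, E2f7, Orc1, Cdc7 and E2f2. E2f8 was at the limit of 1.00 in all 4 converted libraries. Gins3 had an NTR of 0.998 and 0.975 in TUC A and B, and of 0.974 and 0.983 in SLAM A and B. E2f7 had 0.95 and 0.956 with TUC, and 0.965 and 0.981 with SLAM. These genes encode a pair of E2F repressors and a subunit of the GINS complex. Orc1, the cell-cycle regulated subunit of the origin recognition complex, had a SLAM mean of 0.972 ± 0.00849 (SD, n = 2), Cdc7 one of 0.971 ± 0.0195 and E2f2 one of 0.968 ± 0.0272. Slbp, which binds the stem-loop of replication-dependent histone mRNAs, followed at 0.963 ± 0.0216, then Cdt1 (0.946 ± 0.00516), Cdc6 (0.941 ± 0.010) and Wdhd1 (0.933 ± 0.0156). From Gins3 down to Wdhd1, each gene differed from the next by less than the SD of at least 1 of the pair.

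The 6 lowest SLAM means were those of Rpa3, Pola1, Lig1, Rfc2, Rpa1 and Gins2. Rpa3, the small subunit of RPA, had an NTR of 0.159 and 0.175 with TUC, and of 0.12 and 0.128 with SLAM. Pola1, the catalytic subunit of polymerase alpha, had 0.218 and 0.237 with TUC, and 0.191 and 0.169 with SLAM. Both were below the median of all genes in every converted library. Lig1, the ligase that joins Okazaki fragments, had a SLAM mean of 0.212 ± 0.0349, Rfc2 one of 0.219 ± 0.0685, Rpa1, the large RPA subunit, one of 0.25 ± 0.0341 and Gins2 one of 0.255 ± 0.0479 (SD, n = 2). In the SLAM libraries 26 of the 55 genes (47.3%) averaged above 0.5, against 56% of all genes, while 12 (21.8%) averaged above 0.9, against 19.6% of all genes.

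**Figure D1:**
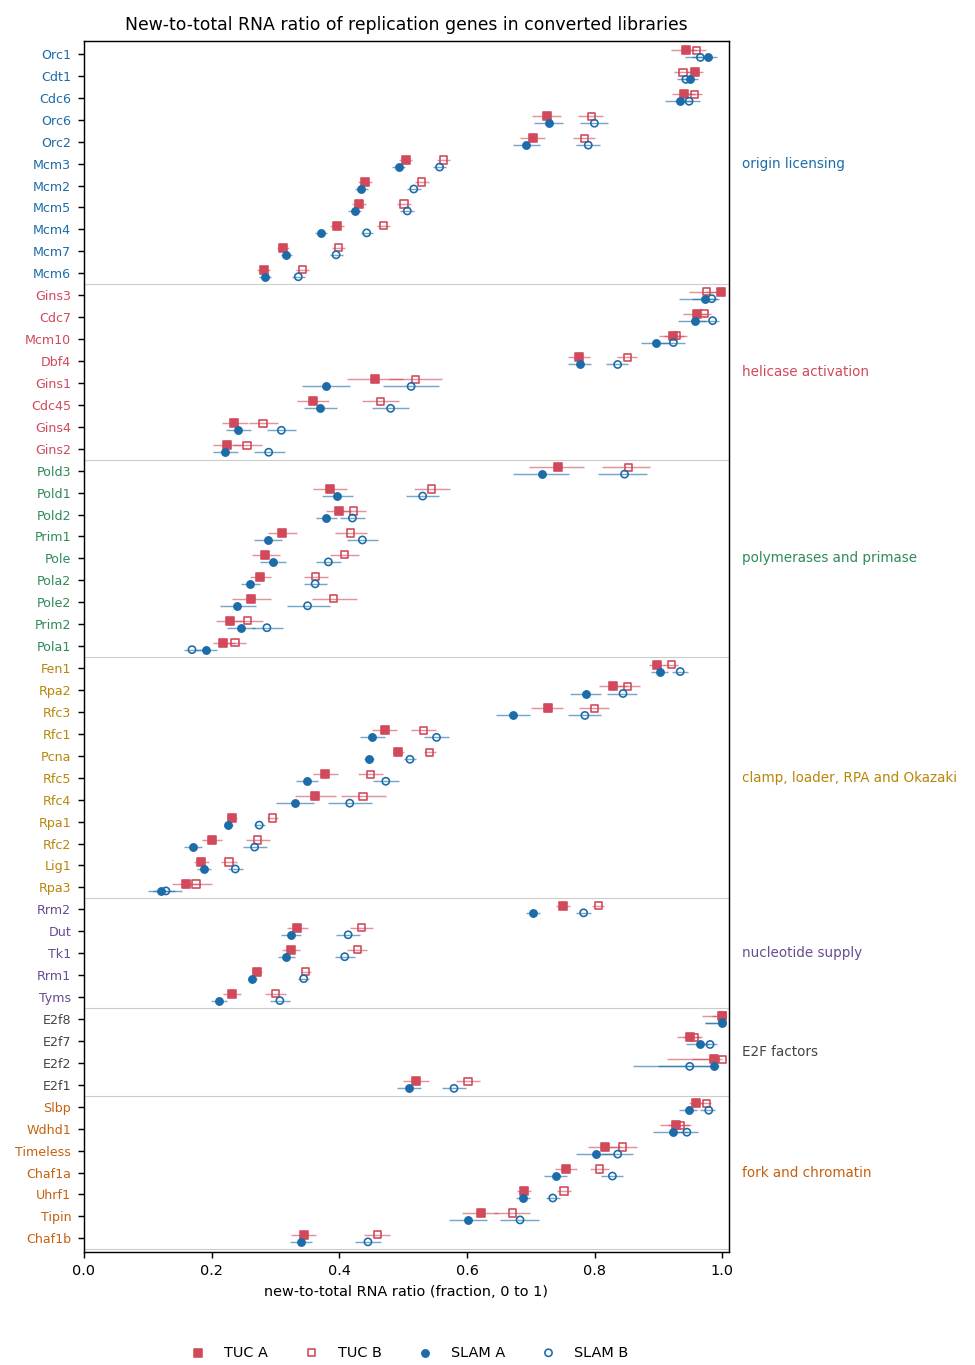
New-to-total RNA ratio (fraction, 0 to 1) of each of the 55 genes, grouped by role, in TUC A and B (squares) and SLAM A and B (circles), with lines from the 0.05 to the 0.95 quantile that the authors deposited. E2f8 lies at 1.00 in all 4 libraries and Rpa3 between 0.12 and 0.175, and the Mcm2-7 genes lie well below Orc1, Cdt1 and Cdc6.

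Subunits of the same machine differed in this ratio. The 6 genes of the Mcm2-7 helicase had SLAM means between 0.309 (Mcm6) and 0.525 (Mcm3), whereas Cdc6, Cdt1 and Orc1, which act with it at origins, lay between 0.941 and 0.972. Among the GINS genes the range was 0.255 (Gins2) to 0.978 (Gins3), among the RPA genes 0.124 (Rpa3) to 0.815 (Rpa2) and among the clamp loader genes 0.219 (Rfc2) to 0.729 (Rfc3). Rrm2 had a mean of 0.743 ± 0.056, against 0.304 ± 0.0569 for its partner subunit Rrm1 (SD, n = 2). E2f1, the best known activator E2F, had 0.544 ± 0.050, below the other E2F genes, and Pcna had 0.479 ± 0.0454. By role, the median SLAM mean was 0.970 for E2F factors, 0.784 for fork and chromatin genes, 0.626 for helicase activation, 0.525 for licensing, 0.411 for the clamp, loader, RPA and Okazaki group, 0.363 for nucleotide supply and 0.339 for polymerases and primase. The order of the roles was the same in the TUC libraries, with medians of 0.973, 0.781, 0.65, 0.533, 0.413, 0.376 and 0.346.

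By the medians above, the ratio of these genes differed more between letters than between chemistries. SLAM B lay above SLAM A for 50 of 55 genes (84.8% of all genes) and TUC B above TUC A for 52 (85.1%). TUC lay above SLAM for 40 in library A (67.3% of all genes) and for 32 in library B (64.6%). The largest mean differences, TUC minus SLAM, were 0.0474 for Pola1, 0.0431 for Rpa3, 0.0421 for the GINS gene Gins1, 0.0385 for Pcna, 0.0347 for Rrm2 and 0.0344 for Rfc3. In the other direction they were -0.0237 for the primase subunit Prim2, -0.0206 for Orc1, -0.020 for E2f7, -0.0173 for Gins4, -0.0159 for Gins2 and -0.0135 for Cdc45. On the log odds scale, limma called 0 of 55 genes without the letter (0.049% of 10202 genes higher and 0.216% lower in TUC) and 0 with it (0% of all genes either way), with 1 gene at an unadjusted p under 0.05 in each fit (2.4% of all genes without the letter, 7.9% with it). E2f2 and Gins3 passed only in fits that left out a library. The log odds difference of E2f2 was 3.89 without SLAM A and 4.72 without TUC A, and that of Gins3 was 3.75 without TUC B. Both genes lie near the upper limit of the ratio. Over all genes, too, fits that left out a library called more than the fit of all 4 libraries.

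For 4sU against untreated cells, the main test called none of the replication genes. The blocked fit called a minority of them lower, led by Wdhd1 and Orc2. Without the letter, edgeR's quasi-likelihood test called 0 of 55 (0.0737% of all genes lower, 0.09% higher, 0.164% either way), with 5 at an unadjusted p under 0.05, all lower (9.02% of all genes either way), and DESeq2 called 2 lower, Orc2 and Wdhd1 (1.93% of all genes either way, which for DESeq2 are those with an adjusted p in its output). With the letter as a block, 11 fell and 2 rose, against 12.9% of all genes lower and 6.97% higher. The 11 are 20% of the replication genes, and the median log2 fold change of the 55 was 0.0139, against 0.00788 over all genes. Both 4sU libraries lay below both untreated ones in CPM for 13 genes (20.1% of all genes) and above them for 3 (17.3%). By role the fallen genes were 3 of 8 in helicase activation, 3 of 7 at the fork and in chromatin, 2 of 11 in licensing, 2 of 9 polymerase genes and 1 of 11 in the clamp and loader group. None of the 5 nucleotide supply genes and none of the 4 E2F genes passed.

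Wdhd1 encodes the fork protein And-1, the counterpart of yeast Ctf4, which links the helicase to polymerase alpha. It had 33.5 and 36.3 CPM in 4sU A and B, against 63.2 and 64.9 CPM in untreated A and B. Both 4sU libraries were well below both untreated ones, a log2 fold change of -0.88 ± 0.0874 (SE; edgeR adjusted p = 4.48e-06 with the block and 0.0988 without). Orc2, a core subunit of the origin recognition complex, had 62.4 and 59.7 CPM with 4sU, against 88.5 and 83.1 CPM untreated. Again the groups did not overlap (-0.49 ± 0.056, edgeR adjusted p = 1.64e-05 with the block and 0.0748 without). These were the only 2 of the 13 calls kept whichever of the 4 libraries was left out of the blocked fit.

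Against uridine, which supplies the natural nucleoside at the same dose and time, the same 4sU libraries can be set against another reference, so the 2 comparisons share samples. Orc2 was called without the block (-0.59, edgeR adjusted p = 0.0375), the only gene of the 55 to pass (0.156% of all genes lower, 0.0982% higher), with 8 at an unadjusted p under 0.05 (10.1% of all genes). That call was lost when any of the 4 libraries was left out. Uridine A and B held 91.7 and 91.6 CPM of Orc2, both above the 4sU libraries. DESeq2 without the block called 3 lower, Orc2, Orc6 and Wdhd1 (2.44% of all genes either way). With the block 12 fell and 1 rose, against 13.3% of all genes lower and 6.48% higher (19.7% either way). Of these blocked calls, those of Wdhd1, Orc2, Orc6, Pold3 and Tipin were kept whichever library was left out. Those of Mcm10, Cdc7, Prim2 and Cdt1 were lost whichever library was left out. Both 4sU libraries lay below both uridine libraries in CPM for 14 genes (19.5% of all genes) and above them for 4 (16.9%). Wdhd1 had 63.9 and 67.5 CPM with uridine, a log2 fold change of -0.91 ± 0.0878 for 4sU over uridine (edgeR adjusted p = 2.91e-06 with the block, 0.0744 without).

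**Figure D2:**
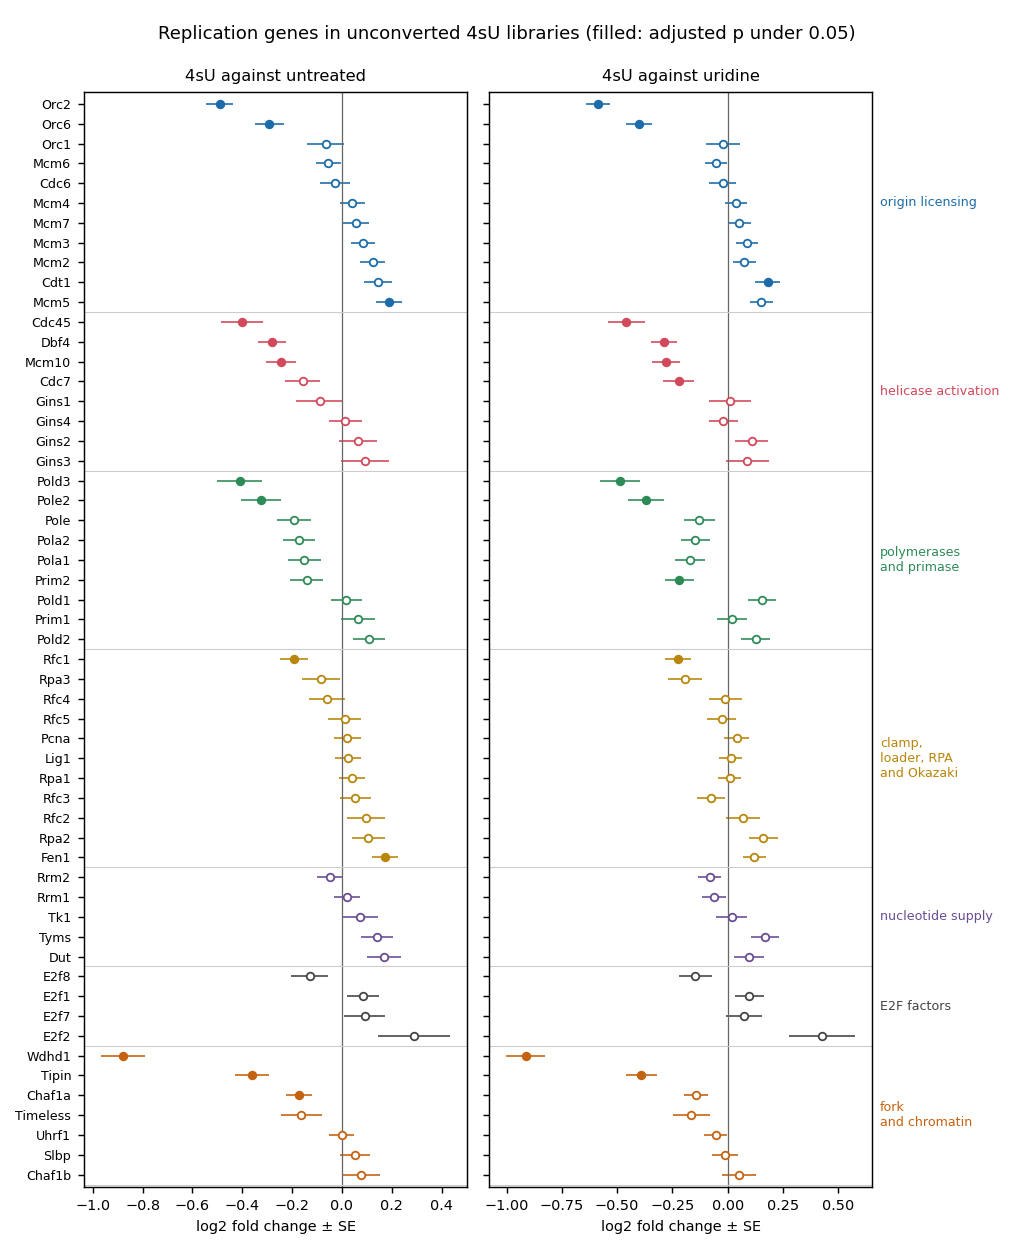
Log2 fold change ± SE of each of the 55 genes in unconverted 4sU libraries against untreated libraries (left) and uridine libraries (right), fitted with the letter as a block, grouped by role and filled where the adjusted p was under 0.05. Wdhd1 lies farthest to the left in both panels, at -0.88 and -0.91, followed by Orc2 at -0.49 and -0.59.

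Other origin and helicase genes fell with the block by smaller amounts. Cdc45, an essential part of the active helicase, had 36.6 and 32.1 CPM with 4sU, against 49.2 and 41.7 CPM untreated and 48.6 and 45.5 CPM with uridine. Its 4sU libraries lay below all 4 of the others, with log2 fold changes of -0.40 ± 0.0851 against untreated cells (edgeR adjusted p = 0.00354) and -0.46 ± 0.0854 against uridine (adjusted p = 0.00125). Orc6, the smallest subunit of the origin recognition complex, had 49.3 and 48.6 CPM with 4sU, against 62.3 and 57.7 CPM untreated (-0.29 ± 0.0587, adjusted p = 0.00237) and 68.0 and 61.7 CPM with uridine (-0.40 ± 0.0588, adjusted p = 0.000154). Dbf4, the regulatory subunit of the Cdc7 kinase, changed by -0.28 against untreated cells and -0.29 against uridine. Mcm10, a helicase activator, changed by -0.24 and -0.28. Cdc7 itself passed only against uridine (-0.22, edgeR adjusted p = 0.037), where DESeq2 with the block did not call it. The difference between the 2 comparisons was not tested for Cdc7.

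Among polymerase and fork genes, Pold3 had 13.4 and 11.4 CPM with 4sU, against 19.4 and 13.8 CPM untreated (-0.41 ± 0.0896, edgeR adjusted p = 0.00418 with the block) and 18.7 and 16.1 CPM with uridine (-0.49 ± 0.0901, adjusted p = 0.00117). The groups did not overlap, but the spread between letters was wide in untreated cells. Pole2, the second subunit of polymerase epsilon, had 19.1 and 15.1 CPM with 4sU, against 23.1 and 19.6 CPM untreated (-0.32, adjusted p = 0.0102) and 22.7 and 21.1 CPM with uridine (-0.37, adjusted p = 0.00458). Tipin, the partner of Timeless in the fork protection complex, had 28.0 and 25.6 CPM with 4sU, against 36.4 and 32.5 CPM untreated (-0.36, adjusted p = 0.00178) and 38.5 and 32.0 CPM with uridine (-0.39, adjusted p = 0.00096). Rfc1, the large clamp loader subunit, changed by -0.19 and -0.23 in the 2 comparisons. The chromatin assembly gene Chaf1a passed against untreated cells (-0.17, edgeR adjusted p = 0.0302). Prim2 passed against uridine (-0.22, edgeR adjusted p = 0.0301) with overlapping libraries. DESeq2 with the block made neither of these calls. Of the promoters printed above, those of Pold3 and Pole2 belong to genes that fell here. The other genes that fell against untreated cells had no motif found. The windows of Wdhd1, Orc2, Orc6, Cdc45, Mcm10, Dbf4, Rfc1 and Chaf1a held none, and Tipin had no window.

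The genes that rose did so by little. Mcm5 had 248.4 and 191.6 CPM with 4sU, against 214.2 and 170.9 CPM untreated, and Fen1, the flap endonuclease of Okazaki fragment processing, had 122.1 and 109.0 CPM, against 110.4 and 94.8 CPM. In both genes the libraries of the groups overlapped and each letter was higher with 4sU, with log2 fold changes of 0.19 ± 0.0518 (edgeR adjusted p = 0.0174 with the block) and 0.17 ± 0.0515 (adjusted p = 0.0266). Without 4sU A, Mcm5 stood at -0.01 in the fit without the block. Cdt1 passed against uridine, with 82.7 and 76.4 CPM, against 71.8 and 68.6 CPM (0.18, edgeR adjusted p = 0.0317 with the block). With the block, this Cdt1 call and the Fen1 call were lost with library totals and kept with DESeq2. Both were lost whichever library was left out. Well known S-phase genes did not pass against untreated cells with the block, among them Pcna at 0.02 ± 0.055, Mcm2 at 0.12 ± 0.0508, Cdc6 at -0.03 ± 0.0608, Rrm2 at -0.05 ± 0.0518, E2f1 at 0.08 ± 0.064 and Slbp at 0.05 ± 0.0596 (log2, SE).

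Uridine itself went with no call among the replication genes. Against untreated cells the log2 fold changes of the 55 genes lay between -0.136 and 0.132 with the block, with a median of 0.0226, against 0.001 over all genes. edgeR called 0 of 55 in both fits (0% of all genes without the block, 0.00818% higher with it), with 0 at an unadjusted p under 0.05 (0.376% of all genes without the block, 3.11% with it), and DESeq2 called 0 with and without the block (0% of all genes). Both uridine libraries lay above both untreated ones in CPM for 1 gene (7.77% of all genes) and below them for 0 (7.33%).

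**Figure D3:**
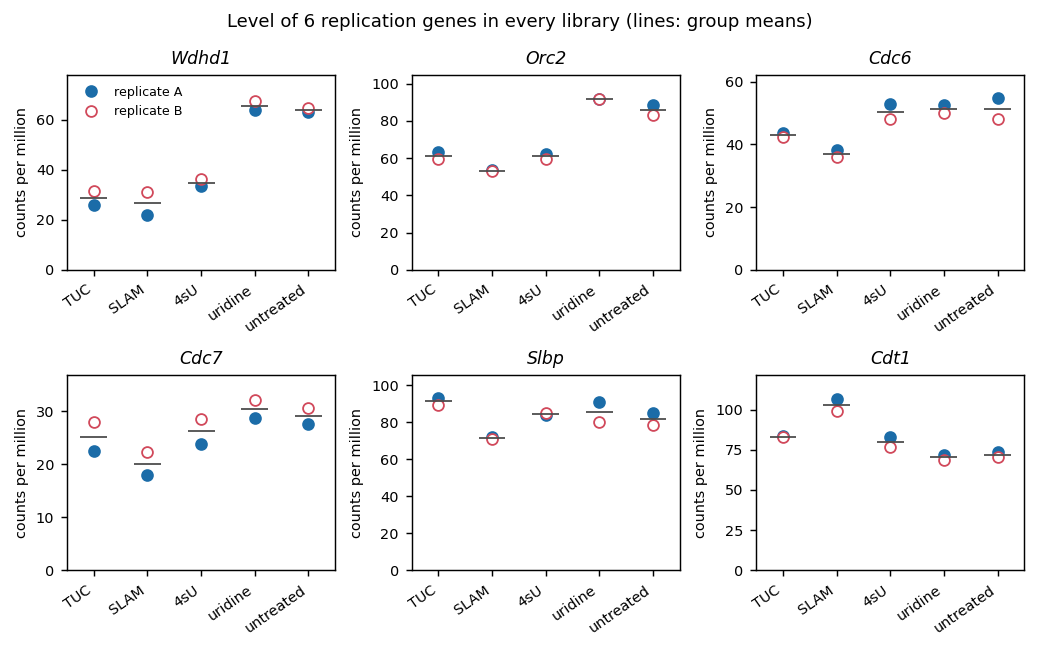
Level (CPM) of Wdhd1, Orc2, Cdc6, Cdc7, Slbp and Cdt1 in every library, with replicate A filled, replicate B open and a line at each group mean. Wdhd1 and Orc2 are lower in all 4sU-treated groups than with uridine or without treatment, and Cdt1 and Slbp stand apart in the SLAM libraries in opposite directions.

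After SLAM conversion, replication genes moved both ways against unconverted 4sU RNA, with Cdc6 down and Cdt1 up. Without the block edgeR called 0 of 55 (0.327% of all genes higher, 0.0164% lower), with 7 at an unadjusted p under 0.05 (18.7% of all genes), and DESeq2 called 2, Cdt1 higher and Cdc6 lower (5.65% of all genes). With the block 12 rose and 10 fell, against 20% of all genes higher and 21.6% lower, so that the share called either way, 22 of 55, was near the 41.6% of all genes. Both SLAM libraries lay above both unconverted ones in CPM for 2 genes, Cdt1 and E2f8 (20.8% of all genes), and below them for 14 (22.6% of all genes). The libraries of the other 11 genes that rose overlapped, B being lower than A in both groups.

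Cdc6, the ATPase that loads the helicase at origins, had 38.1 and 36.0 CPM in SLAM A and B, against 52.9 and 48.0 CPM in unconverted 4sU A and B. The SLAM libraries were lower without overlap (log2 fold change -0.44 ± 0.0625, edgeR adjusted p = 5.37e-05 with the block and 0.092 without). Cdt1, its partner in loading, had 106.7 and 99.1 CPM with SLAM, against 82.7 and 76.4 CPM without conversion. These were higher without overlap (0.37 ± 0.0544, edgeR adjusted p = 7.62e-05 with the block and 0.0953 without). The pair therefore changed in opposite directions although both had an NTR above 0.9. Cdc7 had 17.98 and 22.24 CPM with SLAM, against 23.8 and 28.6 CPM (-0.38 ± 0.0731, adjusted p = 0.000652), and each letter of it was lower by a like amount.

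Other genes that fell after SLAM conversion were Wdhd1 (-0.40), E2f7 (-0.33), Pola1 (-0.28), Slbp (-0.24), Pole, the catalytic subunit of polymerase epsilon (-0.21), Rfc1 (-0.21), Orc2 (-0.20) and Rrm2 (-0.13). Slbp had 72.1 and 71.0 CPM with SLAM, against 84.1 and 85.1 CPM without conversion, with no overlap (± 0.0601 SE, edgeR adjusted p = 0.00437 with the block). Rising genes besides Cdt1 were the chromatin assembly subunit Chaf1b (0.34), Tk1 (0.30), Gins4 (0.29), Rfc4 (0.29), Pold2 (0.25), Rfc2 (0.25), Gins2 (0.25), Pola2 (0.24), E2f1 (0.19), the thymidylate synthase gene Tyms (0.19) and Pold1 (0.18). Chaf1b had 83.6 and 60.8 CPM with SLAM, against 61.8 and 52.0 CPM (± 0.0757, adjusted p = 0.00219). Of the 22 calls, 6 were kept whichever library was left out, those of Cdc6, Cdc7, Cdt1, Gins4, Chaf1b and Pola1. Without SLAM A the unblocked values of Rfc2 (-0.05), Tyms (-0.06), Gins2 (-0.04) and Tk1 (-0.04) turned below 0.

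TUC conversion gave fewer calls. The unblocked edgeR fit called 0 of 55 against unconverted 4sU RNA (0% of all genes), with 2 at an unadjusted p under 0.05 (6.92% of all genes), and DESeq2 called 0 (0.0772% of all genes). With the block 7 rose and 6 fell, against 11.6% of all genes higher and 14.2% lower (25.8% either way). Both TUC libraries lay above both unconverted ones in CPM for 6 genes (18.4% of all genes) and below them for 9 (18.9%). Pole had 47.1 and 45.8 CPM with TUC, against 56.8 and 58.8 CPM without conversion, with no overlap (-0.32 ± 0.071, edgeR adjusted p = 0.00513 with the block). E2f7 had 30.1 and 37.7 CPM, against 39.6 and 44.8 CPM (-0.32 ± 0.0841, adjusted p = 0.0127). Also lower were Wdhd1 (-0.28), Cdc6 (-0.23), Rfc1 (-0.19) and Pola1 (-0.19), whose values after SLAM conversion were -0.40, -0.44, -0.21 and -0.28 in a comparison that shares the unconverted libraries. Higher were Gins4 (0.28), Tk1 (0.28), Tipin (0.25), the dUTPase gene Dut (0.25), Rfc4 (0.24), Rfc2 (0.22) and Rfc3 (0.20). None of these 13 calls was kept in every fit that left out a library. Over all genes, too, the number called changed with the library left out.

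**Figure D4:**
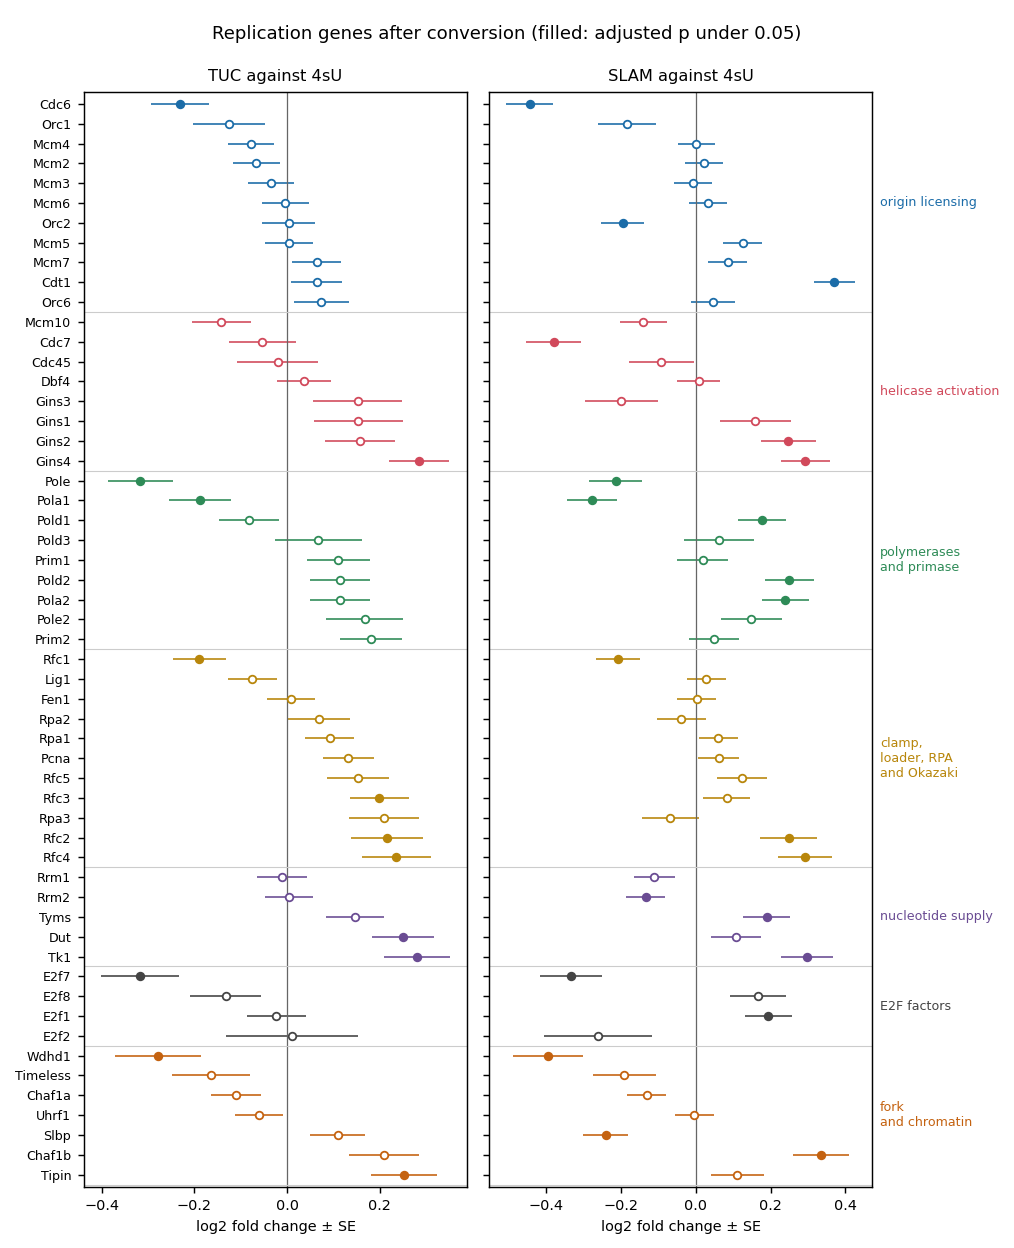
Log2 fold change ± SE of each of the 55 genes after TUC conversion (left) and SLAM conversion (right) against unconverted 4sU RNA, fitted with the letter as a block, grouped by role and filled where the adjusted p was under 0.05. Cdc6 lies below 0 in both panels, at -0.23 and -0.44, whereas Cdt1 lies at 0.06 with TUC and 0.37 with SLAM.

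Set directly against SLAM, TUC libraries held more Slbp and less Cdt1. Slbp had 93.2 and 89.4 CPM with TUC, against 72.1 and 71.0 CPM with SLAM. The groups were far from overlapping (0.35 ± 0.0601, edgeR adjusted p = 0.000821 with the block, 0.28 without). Cdt1 had 83.3 and 82.8 CPM with TUC, against 106.7 and 99.1 CPM with SLAM (-0.31 ± 0.0545, adjusted p = 0.00105 with the block, 0.292 without). Without the block edgeR called 0 of 55 (0% of all genes), with 5 at an unadjusted p under 0.05 (9.86% of all genes), and DESeq2 called 0 (1.45% of all genes). With it, 6 rose and 4 fell, against 10% of all genes higher and 10.1% lower (20.1% either way), and the calls of Slbp and Cdt1 were the 2 kept whichever library was left out. Both TUC libraries lay above both SLAM libraries for 6 genes (15.4% of all genes) and below them for 5 (15.6%).

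The change after conversion followed the length of the gene across the 55 genes. TUC over unconverted 4sU correlated with the deposited length at a Pearson r of -0.641 and a Spearman rho of -0.624 over the 55 genes, and at -0.695 and -0.727 over 10202 genes. For SLAM over unconverted 4sU the values were -0.417 and -0.43, against -0.533 and -0.564 over all genes. Lengths of the replication genes ran from 682 to 7163 bases with a median of 3128, against 3307 over all genes tested. For 4sU over untreated cells the replication genes showed almost no such relation (0.0114 and 0.00274), whereas over all genes it was -0.426 and -0.478. These are descriptions across genes of the same libraries, which are not independent replicates, and which length was deposited is not stated.

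**Figure D5:**
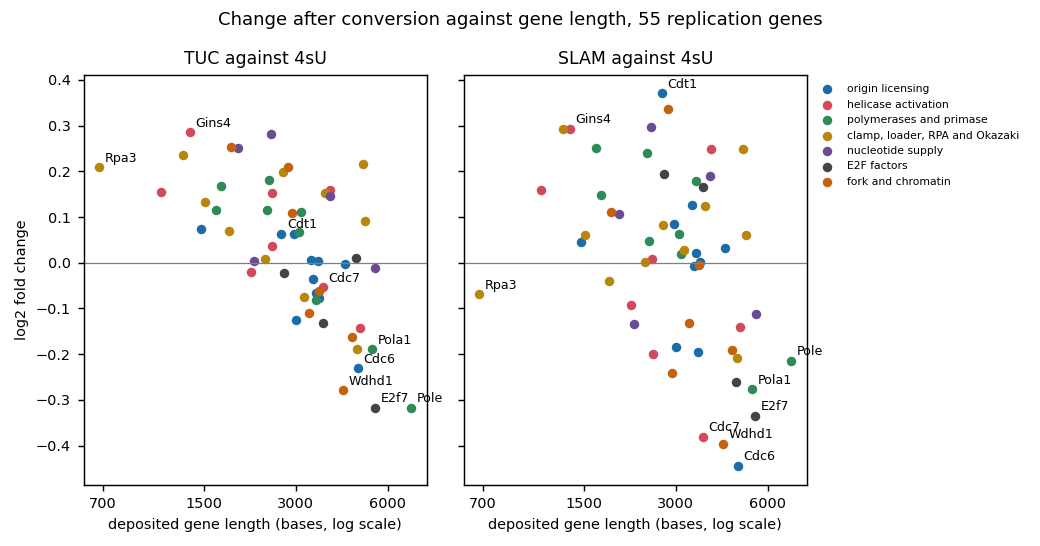
Log2 fold change after TUC (left) and SLAM (right) conversion against unconverted 4sU RNA, plotted against the deposited gene length in bases on a log scale, with 1 point per gene coloured by role. Long genes such as Pole and E2f7 lie low and some short ones such as Gins4 lie high, with a tighter trend for TUC (r = -0.641) than for SLAM (r = -0.417). Rpa3, the shortest at 682 bases, had a mean of 24.6 CPM with TUC and 20.4 CPM with SLAM, against 21.3 CPM without conversion.

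The change after SLAM conversion was lower in genes of higher NTR. SLAM over unconverted 4sU correlated with the SLAM NTR at -0.493 (Pearson) and -0.44 (Spearman) over the 55 genes, and at -0.369 and -0.389 over all genes, with SLAM libraries entering both measures. Taking the NTR from the TUC libraries gave -0.494 and -0.441. Of 23 genes with a SLAM NTR above 0.6, a threshold chosen after the values were seen, 7 fell and 1 rose after SLAM conversion with the block, with a median of -0.134. Of the 32 at or below it, 3 fell and 11 rose, with a median of 0.0961. For TUC over unconverted 4sU the correlation with the SLAM NTR was -0.40 (Pearson) and -0.409 (Spearman) over the 55 genes, and -0.412 and -0.446 over all genes, and 3 fell and 2 rose among the 23, with 3 and 5 among the 32. For 4sU over untreated cells it was -0.157 and -0.0476 over the 55 genes, and -0.223 and -0.276 over all genes. In that comparison 8 fell and 1 rose among the 23, and 3 fell and 1 rose among the 32. Calls above and below the threshold were not counted over all genes, so these splits cannot be called particular to the replication genes.

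Other genes of the pathway, 69 on 4 lists of which 68 were tested, had 0 calls in edgeR's fits without the block. At an unadjusted p under 0.05 there were 12 for 4sU against untreated (9.02% of all genes), 16 for 4sU against uridine (10.1%), 0 for uridine against untreated (0.376%), 18 for SLAM against 4sU (18.7%), and 6 each for TUC against 4sU (6.92%) and TUC against SLAM (9.86%). Against untreated cells 15 fell and 10 rose with 4sU in the blocked fit, 25 of 68 against 19.9% of all genes either way. Of 16 genes of the E2F and Rb network 6 fell, including the retinoblastoma gene Rb1 (-0.50), the phosphatase gene Cdc25a (-0.49), Lin54 (-0.42) and the Rb relative Rbl1 (-0.31), and 1 rose, cyclin E2 (Ccne2, 0.24). Of 30 further machinery genes 6 fell, including Mms22l (-0.53), the checkpoint mediator Clspn (-0.46), Mtbp (-0.39) and Orc5 (-0.27), and 5 rose, including Pold4 (0.32), Rnaseh2c (0.24), Tonsl (0.22) and Rnaseh2a (0.21). Of 12 chromatin genes 3 fell, the helicase gene Hells (-0.69), the FACT subunit Supt16 (-0.39) and the maintenance methyltransferase Dnmt1 (-0.24), and Cdca7 rose (0.18). Of 10 nucleotide supply genes 3 rose, Ung (0.24), Nme1 (0.22) and Dtymk (0.19), and 0 fell.

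After SLAM conversion 16 of the 68 fell and 9 rose with the block, 25 of 68 against 41.6% of all genes either way, led by Atad5, which unloads the clamp (-0.51), Ccne2 (-0.48), Hells (-0.45) and Rrm2b (-0.42) below and E2f4 (0.39) and Pold4 (0.36) above. TUC conversion went with 9 lower and 4 higher, against 25.8% of all genes either way, and TUC against SLAM with 7 higher and 4 lower, against 20.1%. Uridine against untreated cells gave 0 in either direction (0.00818% of all genes), and 4sU against uridine gave 16 lower and 3 higher, against 19.7% of all genes.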

How the data were processed

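The deposited table holds 17053 genes in 10 NIH-3T3 libraries. The submitters' processing notes name cutadapt, Bowtie2 2.3.0 and STAR 2.7.10b. The build, the annotation, the counter, its strand setting and the tool that gave the ratio were not given in the sources used here. Per the file headers and values, the authors deposited expected counts per gene without scaling, and 24.8 to 30.3% of the genes of a library had a count that is not whole. A fraction from 0 to 1, taken as the new-to-total RNA ratio, was deposited in 8 libraries as a posterior mode with its 0.05 and 0.95 quantiles, per the file headers. 24 per-library columns were not used.

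Counts were rounded to whole numbers, filtered with filterByExpr (12218 genes left, among them all 55 members) and scaled by TMM. edgeR 4.0.16 under R 4.3.3 ran its quasi-likelihood test in a model of all libraries with a term per group, and Benjamini-Hochberg adjusted p-values over all genes under 0.05 were called. limma 3.58.1 tested the log2 odds of the ratio, limited to 0.001 to 0.999, over 10202 genes averaging at least 100 reads. Between A and B of a group, chi-square per degree of freedom was 38.4 to 78.1, more than sampling noise gives. The scripts were tested on simulated data.

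What the letters share is not in the labels. They were taken as pairing libraries across groups, since the difference of A and B in a group correlated with that in every other group (r from 0.584 to 0.69, 10 group pairs, across genes). The common dispersion fell to 0.00195 with this block, against 0.0187 in the fit that leaves the letter out. Alternatives were library totals, other size factors, other filters, DESeq2 1.42.0, 4 libraries alone, and each library left out.

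The members and lists were chosen with earlier results of these data known. The text names, per comparison, members called in either fit (at most 4 per role and direction), with Pcna, Mcm2, Mcm5, Cdc6, E2f1, Rrm2, Slbp and Wdhd1 throughout. For the ratio it names the 6 highest and 6 lowest members and 6 each way by difference, and from each further list at most 4 called genes per direction. Members beyond these were named after their values were seen.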

Additional observations from a re-analysis of the deposited data

Results flagged for a closer look

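For 10 replication genes the effect of conversion differed between the chemistries, tested as TUC against SLAM in edgeR's fit with the letter as a block. The share was below the 20.1% of all genes called in that fit, and edgeR's fit without the block called 0 of the 55. Of the 10 calls, those of Slbp and Cdt1 were kept whichever library was left out, while those of Gins3, Rpa3, Cdc6 and Orc2 were kept in 1 of 4 such fits. 6 were higher with TUC: Gins3 (log2 fold change 0.353, adjusted p = 0.0171), Slbp (0.351, adjusted p = 0.000821), Cdc7 (0.327, adjusted p = 0.00542), Rpa3 (0.278, adjusted p = 0.0164), Cdc6 (0.214, adjusted p = 0.0258) and Orc2 (0.199, adjusted p = 0.0228). The other 4 were lower with TUC, namely Cdt1 (-0.307, adjusted p = 0.00105), E2f8 (-0.299, adjusted p = 0.0109), Pold1 (-0.26, adjusted p = 0.00969) and E2f1 (-0.217, adjusted p = 0.0248). Both TUC libraries lay on the same side of both SLAM libraries for 9 of them, the exception being Rpa3. Over all genes 15.4% lay above without overlap and 15.6% below. The 10 genes were picked by a test of the same counts, so the lack of overlap adds no support. Groups of 2 libraries are too small for a check of single outlying libraries.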

How the results depend on the processing

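With the letter as a replicate block the number of members called was 13 for 4sU against untreated, 13 for 4sU against uridine, 22 for SLAM against 4sU, 13 for TUC against 4sU and 10 for TUC against SLAM (0, 1, 0, 0 and 0 without it), and it left uridine against untreated and the ratio at 0. In the same order the block called 19.9, 19.7, 41.6, 25.8 and 20.1% of all genes (0.164, 0.254, 0.344, 0 and 0% without it). The block with library totals gave 13, 12, 22, 10 and 10 (2171, 2200, 4903, 2742 and 2239 over all genes). The block with DESeq2, chosen after seeing the data, gave 11, 12, 20, 9 and 9 (1900, 1839, 4046, 2377 and 1841 over all genes). DESeq2 without the block gave 2, 3, 2, 0 and 0 (1.93, 2.44, 5.65, 0.0772 and 1.45% of all genes). For 4sU against uridine, no filter on low counts gave 2 (44 over all genes) and the 4 libraries alone gave 0 (0 over all genes). Leaving out a library without the block gave 0 everywhere, and for the ratio 0 to 1. With the block it gave 3 to 12 for 4sU against untreated (7 without untreated A, 3 without 4sU A, 6 without 4sU B), 5 to 9 for 4sU against uridine (5 without uridine B, 8 without 4sU A, 7 without 4sU B), 10 to 29 for SLAM against 4sU (11 without 4sU A, 10 without 4sU B, 13 without SLAM A), 0 to 3 for TUC against 4sU and 3 to 15 for TUC against SLAM (15 without SLAM B, 3 without TUC A, 4 without TUC B). A group left with 1 library is assumed to vary like the others.

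6 single-gene values turned sign in the fit without the block, each at an adjusted p of 0.95 to 1, when leaving out a library left the letters unbalanced. In 4sU against untreated, Mcm5 ran from -0.0102 (without 4sU A) to 0.3667. In SLAM against 4sU, without SLAM A as the lowest, Rfc2 ran from -0.04968 to 0.5106, Tyms from -0.06077 to 0.4224, Gins2 from -0.03905 to 0.5165 and Tk1 from -0.04145 to 0.617. In TUC against 4sU, Rfc2 ran from -0.02659 (without TUC A) to 0.4593. The cause was not tested. Of the calls with the block, 12 of 13, 12 of 13, 20 of 22, 10 of 13 and 9 of 10 were kept with library totals, in the order above. No other alternative turned the sign of any of the 71 gene values examined. The depth of the ratio's estimate is given only through its quantiles, and E2f2 rests on as few as 91 reads in a converted library.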
